A study of Mus musculus with 12 samples.

Results

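Pou5f1, Sox2, Nanog, Sall4, Lin28a, Utf1 and Tcf15 are genes whose products maintain, mark or modulate the undifferentiated state of mouse embryonic stem cells. These 7 genes of the 26061 in the deposited gene table were taken by name, and all 7 passed the filter on low values that left 14487 genes for testing. They were read in E14 embryonic stem cells of 129/Ola background, grown on gelatin without feeders in medium with serum and LIF, which the submitters call primed, or in 2i medium, which they call naive. The 2i medium was serum-free and held N2, B27, LIF, PD0325901, which inhibits MEK, and CHIR99021, which inhibits GSK3. In each medium, cells carried a lentiviral vector with a scrambled shRNA (shScr, the control) or with an shRNA against Setdb1 (the knockdown), and all were collected after 3 days of puromycin selection. Each of the 4 groups held 3 libraries of RNA depleted of ribosomal RNA, numbered 1 to 3. No group was labelled with another shRNA against Setdb1 or with a rescue, so effects of lower Setdb1 and any further effects of this shRNA cannot be told apart. The labels do not say whether the libraries came from separate cultures, so the p-values reflect only how much these libraries vary, and that variation may be technical.

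POU5F1 (OCT4), a POU-domain factor, and SOX2, an HMG-box factor, bind DNA together at composite elements and, with the homeodomain factor NANOG, form the centre of the pluripotency network. SALL4, a zinc finger factor, is a partner of OCT4 and NANOG, UTF1 is a chromatin-bound protein of undifferentiated cells, and TCF15 is a basic helix-loop-helix factor linked to the readiness of these cells to differentiate. LIN28A is an RNA-binding protein that blocks the maturation of let-7 microRNAs, and let-7 in turn targets Lin28a, a double-negative loop. SETDB1 is an H3K9 methyltransferase that represses endogenous retroviruses and, in these cells, some lineage genes.

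Sequences are given first, to show where the letters of an OCT-SOX element and of a let-7 seed match lie in these genes. The 250 bases upstream of the RefSeq start of Nanog, chr6:122707239-122707488 on the plus strand of GRCm38.p6, hold a composite OCT-SOX element, printed in capitals, with 1 mismatch to the searched pattern. The element lies 76 to 62 bases before the start.
Nanog upstream region: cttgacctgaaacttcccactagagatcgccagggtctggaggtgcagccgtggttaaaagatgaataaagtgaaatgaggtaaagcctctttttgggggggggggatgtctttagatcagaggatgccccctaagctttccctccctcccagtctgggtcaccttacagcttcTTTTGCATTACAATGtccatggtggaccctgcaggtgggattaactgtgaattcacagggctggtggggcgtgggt

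The composite pattern is the SOX core CATTGT, any base and the octamer ATGCAAAT, searched on both strands, so its matches also hold a SOX core or a close copy of it. With at most 1 mismatch it was found in 10 of 32851 upstream windows of the same length (0.0304%), and in none exactly. RefSeq windows were at hand for 5 of the 7 genes, in 7 entries, and Nanog alone among those 5 held the composite. The exact octamer was in 1.6% of all windows and in 0 of the 7 entries. The SOX core was in 10.7% of all windows and in windows of Lin28a, Nanog and Pou5f1. The GC box GGGCGG, bound by SP1 and KLF factors, was in 32.7% of all windows and in those of Pou5f1, Sox2 and Utf1, and an E-box (CANNTG) was in 66.2% of all windows and in those of Nanog and Pou5f1. A match is a description of letters and no evidence of binding.

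The let-7 family microRNAs picked by name from RefSeq, 9 in all, share 1 seed, bases 2 to 8, in capitals here for 3 of them. Family members under other forms of name were not searched.
mmu-let-7a-5p: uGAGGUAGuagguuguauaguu
mmu-let-7g-5p: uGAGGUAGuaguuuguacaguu
mmu-miR-98-5p: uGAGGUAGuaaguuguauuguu

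The 8-base match to that seed, CTACCTCA, occurs at 2 places in the 3′ untranslated region of Lin28a and at 1 in that of Sall4, in capitals below with the bases before it, and at none in the other 5 genes. The Lin28a sites lie at chr4:134005189-134005210 and chr4:134004551-134004572 and the Sall4 site at chr2:168748940-168748961, all on the minus strand of GRCm38.
Lin28a let-7 site 1: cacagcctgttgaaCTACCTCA
Lin28a let-7 site 2: agatcgccacaaacCTACCTCA
Sall4 let-7 site 1: gggctttaatttatCTACCTCA

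Of 20996 genes, 3.06% have at least 1 such match in their longest 3′ untranslated region and 0.152% have 2 or more. Lin28b, the paralog of Lin28a, has 1. Mature let-7 was not analysed here, and the sites show only which members carry the match.

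Before the members, the libraries themselves need a description. Gene reads, recovered from the deposited values, ranged from 4821181 in 2i knockdown replicate 3 to 15509401 in 2i control replicate 1. All knockdown libraries had less Setdb1 than all controls of their medium, with log2 changes of −2.33 in serum (SE 0.33, limma adjusted p = 0.00219) and −2.24 in 2i (SE 0.33, limma adjusted p = 0.00173). Structural RNA families were 81 repeat families picked by name, in a search for transfer, ribosomal, small nuclear and other non-coding RNAs. They took 15.33 to 48.00% of repeat reads in serum and 19.76 to 69.33% in 2i, so libraries of 1 group differed in composition. The share was over 50% in 3 libraries, 2i control replicate 3 and 2i knockdown replicates 2 and 3, and within each group replicate 3 had the highest share. Without those 3 libraries the Setdb1 change in 2i was −1.85 (SE 0.43, limma adjusted p = 0.0978). The 6 ES cell markers that are no members (Zfp42, Esrrb, Dppa5a, Tdgf1, Fgf4, Gdf3) summed to 21752 to 58750 normalised reads per library. Limma and voom called 0 of them in each of the 5 comparisons. At an unadjusted p under 0.05 there were 3 for the knockdown in serum, 1 for the knockdown in 2i and 1 for the media in knockdown cells. Of all 14487 genes, 738, 1067 and 2683 had such a p. The markers' median log2 change was −0.43 with the knockdown in serum and −0.02 in 2i, beside 0.00 and 0.01 over all genes. Summed markers stayed at or below 81.4 normalised reads for endoderm and 32.3 for trophoblast, with Elf5 at 0 in all libraries. Mesoderm markers, with Mesp1 at 0 in all libraries, summed to 18.2 to 71.1 in serum controls, 8.63 to 40.3 in serum knockdowns, 119 to 277 in 2i controls and 9.14 to 80.7 in 2i knockdowns. Among them T (brachyury) rose in 2i against serum in control cells, from a mean of 2.961 to 107.6 normalised reads (2.38, SE 0.46, limma adjusted p = 0.00903), and voom did not call it. Neural markers summed to 297 to 755, mostly Tubb3, and fibroblast markers reached 799 in 2i knockdowns. Of the 7 fibroblast markers 2 were tested. With the knockdown in 2i Lum rose (log2 change 4.03, SE 0.48, limma adjusted p = 0.000236), while Pdgfrb was at −0.35 (SE 0.43, limma adjusted p = 0.915). The 5 markers of 2-cell-like cells were all lower in 2i than in serum controls, summing to 4420 to 23548 in serum and 35.2 to 230 in 2i controls. They summed to 3144 to 15483 in serum knockdowns and 628 to 5573 in 2i knockdowns. With the knockdown in 2i 2 of the 5 passed, Gm5662 (3.79, SE 0.74, limma adjusted p = 0.0158) and Dub1a (2.65, SE 0.51, limma adjusted p = 0.0136), where 1.27% of all tested genes did. All 5 had an unadjusted p under 0.05, beside 1067 of all 14487 genes, and voom called 0. The part of these 2-cell-like and mesoderm markers in the members' comparisons was not tested, and in bulk RNA fewer cells that express a gene and less RNA per cell cannot be told apart.

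Levels are compared between genes as normalised reads (reads divided by the library's size factor) per kilobase of exon, averaged over the 12 libraries. Pou5f1 stood at 5230, the 99.1 percentile of the 12901 tested genes with a known length, Sox2 at 3120 (98.4) and Nanog at 1830 (97.4). Lin28a stood at 618 (91.8), Sall4 at 327 (85.3), Tcf15 at 133 (70.6) and Utf1 at 65.8 (56.8). The 3 factors at the centre of the network were thus among the most abundant transcripts, while Utf1 was near the middle of all tested genes. In that order, Sox2 was above Nanog in 12 of 12 libraries, Pou5f1 above Sox2 in 11, Sall4 above Tcf15 in 11 and Nanog above Lin28a in 10. Lin28a exceeded Sall4 in 9 of 12 libraries, and their ranges overlapped in all 4 groups, so these neighbours were not separated beyond their spread. Tcf15 exceeded Utf1 in 9 of 12, with overlap in both knockdown groups. The other neighbours overlapped in some groups too. Pou5f1 and Sox2 did so in both 2i groups and Sox2 and Nanog in 2i knockdowns. Nanog and Lin28a overlapped in serum knockdowns and Sall4 and Tcf15 in serum controls. Of all gene reads, Pou5f1 took 0.0735 to 0.131%, Sox2 0.0363 to 0.0797% and Nanog 0.0114 to 0.0584%. Pou5f1 and Nanog have processed pseudogene copies in the mouse genome and Sox2 lies within the transcript unit Sox2ot, and how reads with several matches were counted is not given in the sources used here.

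**Figure D1:**
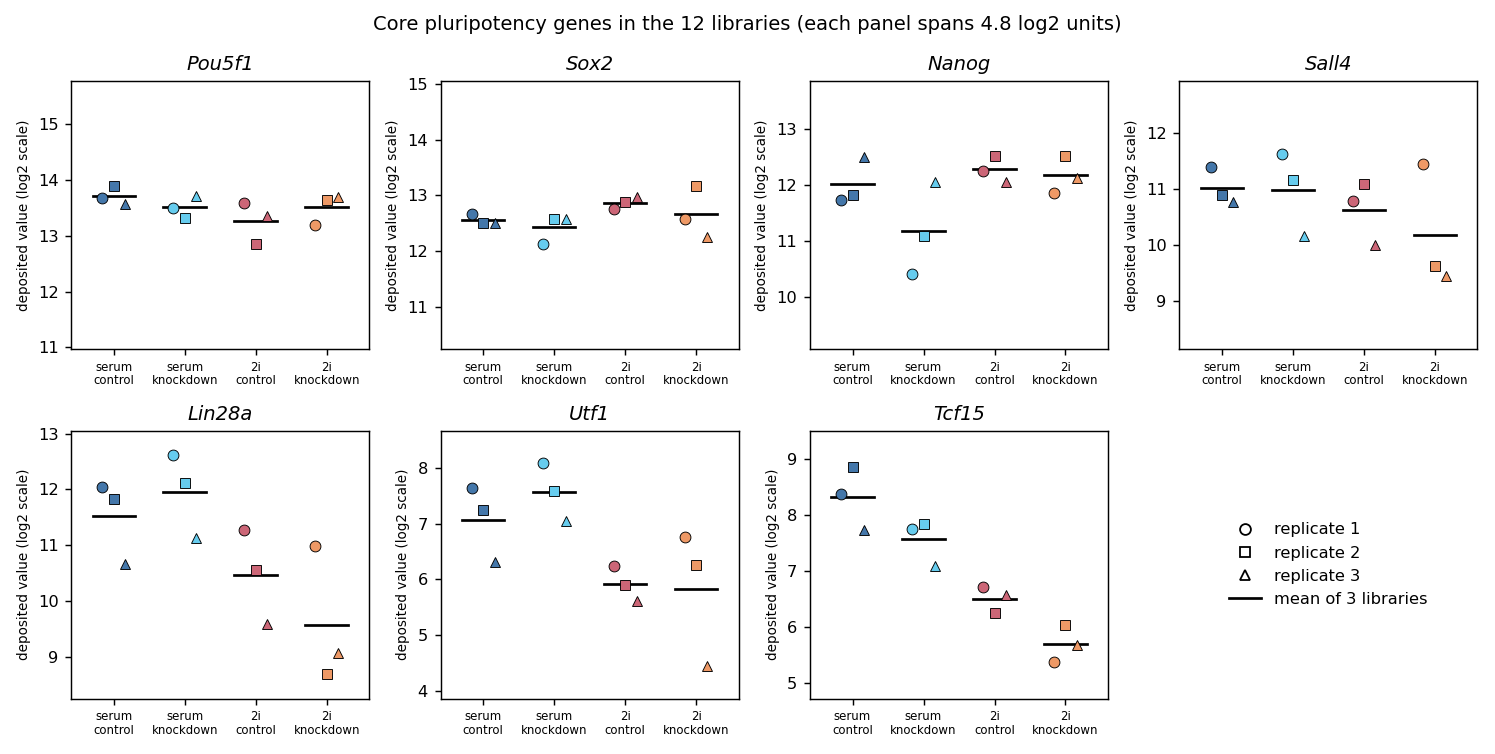
Deposited value (log2 scale) of each of the 7 genes in the 12 libraries, by group, with replicate numbers as symbols and the mean of 3 libraries as a bar; each panel spans the same log2 distance. Pou5f1 and Sox2 stayed within narrow bands, Sall4, Lin28a and Utf1 spread most in 2i knockdowns, and Tcf15 stepped down from serum to 2i.

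Pou5f1, the factor without which the pluripotent state is lost, varied as little as Sox2 did, with SDs of 0.28 and 0.29 log2 units over the 12 libraries against 0.63 to 1.24 for the other 5 genes. Its normalised reads in replicates 1 to 3 were 13086, 15172 and 12078 in serum controls and 11576, 10190 and 13336 in serum knockdowns. They were 12245, 7373 and 10451 in 2i controls and 9358, 12847 and 13262 in 2i knockdowns. The groups overlapped in each of the 4 comparisons of 2 groups, and the lowest value was that of 2i control replicate 2. Its log2 change with the knockdown was −0.20 (95% interval −0.88 to 0.48, limma adjusted p = 1.00) in serum and 0.25 (−0.43 to 0.93, limma adjusted p = 0.916) in 2i. The intervals bound the change and do not show that the levels were equal.

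Sox2, the partner of OCT4 on DNA, had 6409, 5753 and 5776 normalised reads in serum controls and 4435, 6083 and 6084 in serum knockdowns. In 2i it had 6841, 7496 and 8034 in the control and 6038, 9197 and 4842 in the knockdown. All 3 libraries of the 2i control lay above all 3 of the serum control, by a mean of 1.25-fold, but the log2 change of 0.32 (SE 0.30) did not pass (limma adjusted p = 0.665). Knockdown changes were −0.12 (95% interval −0.77 to 0.52, limma adjusted p = 1.00) in serum and −0.20 (−0.85 to 0.44, limma adjusted p = 0.933) in 2i. The 2i knockdown held both the highest and, but for serum knockdown replicate 1, the lowest Sox2 value of the 12 libraries.

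Nanog, the homeodomain factor that fluctuates between cells in serum cultures, had the lowest values of the 3 in serum knockdowns. Its normalised reads were 3363, 3610 and 5751 in serum controls and 1305, 2116 and 4202 in serum knockdowns. In 2i they were 4815, 5854 and 4229 in the control and 3666, 5889 and 4433 in the knockdown. Replicates 1 and 2 of the serum knockdown were below every other library, and replicate 3 lay inside the control range. Replicates 1 and 2 also had the lowest structural RNA shares of all libraries, 16.02 and 15.33%. How Nanog changed with that share within groups is given below. The change in serum was −0.85 (SE 0.38, 95% interval −1.67 to −0.03), with an unadjusted limma p of 0.0431 and an adjusted p of 0.930, so it did not pass. With the serum libraries taken as pairs by replicate number, Nanog was lower in the knockdown in 3 of 3 pairs. The share of all genes with 3 of 3 pairs in the same direction was not determined. Such counts, here and below, are therefore descriptions only. With replicate number as a block the limma adjusted p was 0.366, and 0.137 with a block within medium, so it did not pass there either. In 2i the change was −0.10 (SE 0.38, limma adjusted p = 0.971), and the difference between the media, 0.74 (SE 0.54, limma adjusted p = 1.00), did not pass either. Between media, Nanog was 1.00 higher in 2i than in serum in knockdown cells (SE 0.38, limma adjusted p = 0.175) and 0.25 higher in control cells (SE 0.38, limma adjusted p = 0.814), neither past the threshold. Without serum knockdown replicate 3 the first of these 2 values was 1.44 (limma adjusted p = 0.0380).

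A ratio within a library does not depend on how that library was scaled. The log2 ratio of Nanog to Pou5f1, from normalised reads plus 1, was −1.96, −2.07 and −1.07 in serum controls and −3.15, −2.27 and −1.67 in serum knockdowns. It was −1.35, −0.33 and −1.31 in 2i controls and −1.35, −1.13 and −1.58 in 2i knockdowns. All 3 libraries of the 2i knockdown lay above all 3 of the serum knockdown, a difference of 1.01 in group means (exact permutation p = 0.1, the smallest that 3 against 3 libraries allow, and 0.40 after Benjamini-Hochberg adjustment over 8 tests). For Sox2 to Pou5f1 the difference between the media in control cells was 0.77 (exact permutation p = 0.1, adjusted 0.40), with group means of −1.16 ± 0.20 in serum and −0.40 ± 0.43 in 2i (SD, n = 3). The other 6 exact permutation p-values lay between 0.3 and 0.9, and since none of the 8 tests could reach 0.05, the ratios are given as a description. Between same-numbered serum libraries Nanog to Pou5f1 was lower in the knockdown in 3 of 3 pairs.

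Sall4, the zinc finger partner of OCT4, had 2662, 1871 and 1698 normalised reads in serum controls and 3137, 2266 and 1100 in serum knockdowns. In 2i it had 1730, 2141 and 980 in the control and 2761, 750.3 and 652.6 in the knockdown. The groups overlapped in all 4 comparisons, and replicate 3 was the lowest library in each of the 4 groups. Knockdown changes were −0.03 (SE 0.50, limma adjusted p = 1.00) in serum and −0.45 (SE 0.50, limma adjusted p = 0.902) in 2i. Without the 3 libraries rich in structural RNA the change in 2i was 0.51 (SE 0.54, limma adjusted p = 1.00), of the opposite sign.

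Lin28a, the repressor of let-7 maturation, was lower in 2i than in serum in knockdown cells. Its normalised reads were 6215, 4366 and 2201 in serum knockdowns and 1979, 371.6 and 492.2 in 2i knockdowns, groups that do not overlap. The log2 change was −2.37 (SE 0.59, limma adjusted p = 0.0365), and the mean of the serum group was 4.50-fold that of the 2i group. In control cells the reads were 4207, 3602 and 1574 in serum and 2447, 1455 and 721.8 in 2i, which overlap, with a change of −1.04 (SE 0.59, limma adjusted p = 0.398). Knockdown changes were 0.44 (SE 0.59, limma adjusted p = 1.00, higher in 3 of 3 same-numbered pairs and adjusted p = 0.882 with the block) in serum and −0.89 (SE 0.59, limma adjusted p = 0.831) in 2i. Their difference, −1.33 (SE 0.83, limma adjusted p = 1.00), did not pass, so a different response of Lin28a in the 2 media was not shown.

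The Lin28a call rested on few libraries. With structural RNA share as a covariate the change in knockdown cells was −1.26 (SE 0.29, limma adjusted p = 0.0208). Without the 3 libraries over 50% structural RNA, which leaves 1 library of the 2i knockdown, it was −0.97 (SE 0.61, limma adjusted p = 0.769). The call was lost without either of the serum knockdown replicates 1 and 2 (−2.04 and −2.29, limma adjusted p = 0.138 and 0.156) and without either of the 2i knockdown replicates 2 and 3 (−1.93 and −2.11, limma adjusted p = 0.157 and 0.155). It was also lost without replicate 2 of the serum control or of the 2i control (limma adjusted p = 0.0527 and 0.0531), which leave the change itself at −2.37. In each fit with no low-value filter, only the groups compared or voom, either Lin28a or Tcf15 lost its call in knockdown cells.

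Utf1, a chromatin-associated factor, was read at few counts, 0 to 301 reads per library. Its normalised reads were 158.5, 111.9 and 41.7 in serum controls and 228.9, 150.8 and 91.08 in serum knockdowns. They were 38.28, 24.14 and 15.26 in 2i controls and 69.17, 38.58 and 0 in 2i knockdowns. The 0 came from the shallowest library, where 3 reads, the limit that a count of 0 allows, are 8.30 normalised reads for counting error only. In both the control and the knockdown cells every 2i library lay below every serum library. The log2 changes were −1.15 (SE 0.52, limma adjusted p = 0.271) in control cells and −1.75 (SE 0.52, limma adjusted p = 0.0803) in knockdown cells, so neither passed. Knockdown changes were 0.50 (SE 0.52, limma adjusted p = 1.00, higher in 3 of 3 same-numbered pairs and adjusted p = 0.864 with the block) in serum and −0.10 (SE 0.52, limma adjusted p = 0.982) in 2i.

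Tcf15, the helix-loop-helix factor, was lower in 2i than in serum with either shRNA. In control cells it had 290.9, 422.9 and 172.1 normalised reads in serum and 65.72, 37.93 and 56.34 in 2i. In knockdown cells it had 175.7, 189.5 and 95.88 in serum and 9.223, 29.44 and 16.59 in 2i. No 2i library reached any serum library of the same shRNA. The log2 changes were −1.82 (SE 0.36, limma adjusted p = 0.0103) and −1.87 (SE 0.36, limma adjusted p = 0.00910), and the serum means were 5.54-fold and 8.34-fold the 2i means. The first comparison lost its call without serum control replicate 2 (−1.55, limma adjusted p = 0.0685) or 2i control replicate 2 (−1.69, limma adjusted p = 0.0555). The second lost it without serum knockdown replicate 2 (−1.73, limma adjusted p = 0.0682) and without the 3 libraries rich in structural RNA (−2.20, limma adjusted p = 0.0794). With structural RNA share as a covariate both passed, at −1.77 (limma adjusted p = 0.00452) and −1.76 (limma adjusted p = 0.0156). As given for Lin28a, either Lin28a or Tcf15 lost its call in knockdown cells in each fit with no low-value filter, only the groups compared or voom.

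Tcf15 also had lower values with the Setdb1 shRNA in each medium, without passing the test. In serum the change was −0.76 (SE 0.36, limma adjusted p = 0.978), with 1 knockdown library below all controls and the knockdown lower in 3 of 3 same-numbered pairs (limma adjusted p = 0.542 with replicate number as a block). In 2i it was −0.81 (SE 0.36, limma adjusted p = 0.608), with all 3 knockdown libraries below all 3 controls and 6 to 29 reads each against 48 to 91. The control mean was 1.92-fold the knockdown mean in serum and 2.90-fold in 2i. The difference between the media was −0.05 (SE 0.51, 95% interval −1.13 to 1.02, limma adjusted p = 1.00). The 2 knockdown comparisons share no library with each other, but both use the variance fitted over all 12 libraries. Each also shares libraries with the comparisons of media, so these changes are not independent of each other.

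**Figure D2:**
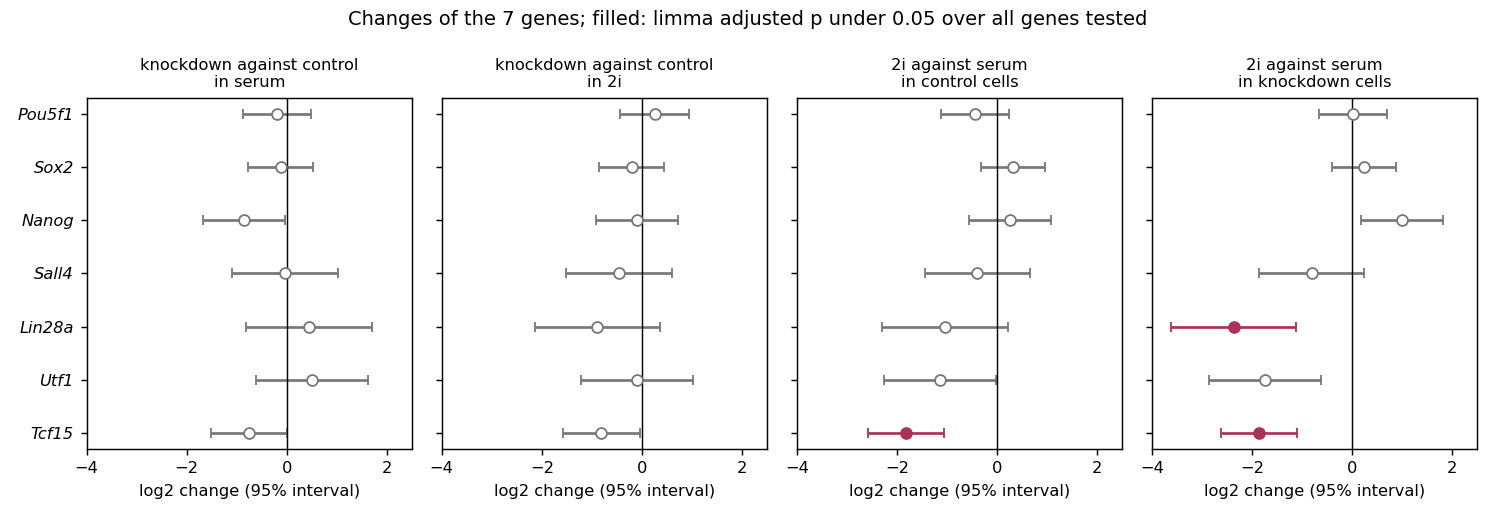
Log2 change of each of the 7 genes with its 95% interval in the 4 comparisons of 2 groups; filled points have a limma adjusted p under 0.05 over all genes tested. No point is filled for the knockdown in either medium, Tcf15 is filled in both comparisons of media, and Lin28a only in knockdown cells (−2.37).

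Counted together, 0 of the 7 genes passed with the knockdown in serum, where 0.649% of all tested genes did (94 of 14487, or 171 with replicate number as a block). In 2i it was 0 of 7 against 1.27% of all genes (184). Against backgrounds this low, 0 of 7 is not a result about these genes. At an unadjusted p under 0.05 there was 1 of 7 in each medium, Nanog in serum and Tcf15 in 2i, beside 738 and 1067 of the 14487 genes, and voom called 0 of the 7 in each. Members whose knockdown and control libraries do not overlap numbered 0 of 7 in serum, against 9.71% of all genes, and 1 of 7 in 2i, Tcf15, against 10.7%. For the difference of the knockdown changes, limma called 0 of 7 and 0% of all genes, with 404 genes and 0 of the 7 at an unadjusted p under 0.05. The members' median log2 change was −0.12 in serum and −0.20 in 2i, beside 0.00 and 0.01 over all genes.

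Between media, 1 of 7 passed in control cells, lower in 2i, where 3.62% of all genes passed in either direction. In knockdown cells 2 of 7 passed, both lower in 2i, against 3.75%. Groups without overlap numbered 3 of 7 in both cases, against 23.8% of all genes in control cells and 19.1% in knockdown cells. They were Sox2, Utf1 and Tcf15 in control cells and Lin28a, Utf1 and Tcf15 in knockdown cells. The median change of the 7 was −0.45 in control cells and −0.81 in knockdown cells, beside −0.05 over all genes in each.

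Sall4, Lin28a and Utf1 were lower where a library held more structural RNA, within the groups. Per 10 percentage points of structural RNA share, log2 levels changed by −0.38 for Sall4 (SE 0.06, limma adjusted p = 0.000137), −0.47 for Lin28a (SE 0.06, limma adjusted p = 4.43e-05) and −0.35 for Utf1 (SE 0.08, limma adjusted p = 0.00490). The library richest in structural RNA was the lowest of its group in 4 of 4 groups for Sall4 and Utf1 and in 3 of 4 for Lin28a. The values were −0.05 for Tcf15 (SE 0.08, limma adjusted p = 0.709), 0.06 for Pou5f1 (SE 0.06, limma adjusted p = 0.440) and 0.01 for Sox2 (SE 0.06, limma adjusted p = 0.887), and Nanog had 0.14 (SE 0.07, limma adjusted p = 0.144). The covariate fit was one of the alternatives, but its term was read for each gene only after the values had been seen, and 25.9% of all tested genes passed it, the share against which 3 of 7 is read. With it in the model the residual degrees of freedom were 7, and the Sall4 values between media moved to 0.02 in control cells and 0.08 in knockdown cells, from −0.40 and −0.81. What the share stands for was not tested.

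**Figure D3:**
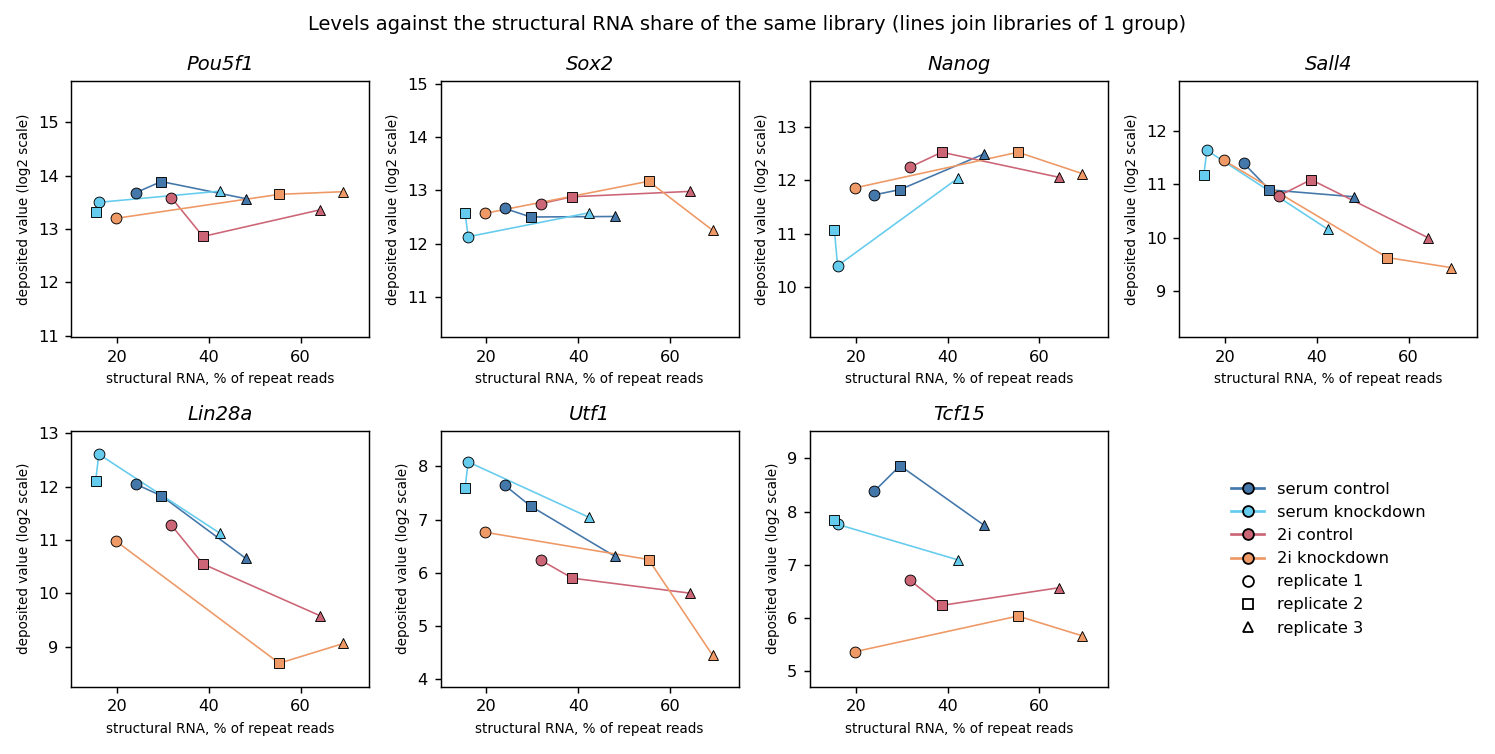
Deposited value (log2 scale) of each gene against the share of repeat reads from structural RNA in the same library (percent), with lines joining the 3 libraries of a group. Sall4, Lin28a and Utf1 slope down within groups; Pou5f1, Sox2 and Tcf15 show no common slope.

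The genes whose deposited values followed each member most closely over the 12 libraries are given as a description, without p-values, since all share the same libraries and composition. Sall4 was followed most closely by Igf2bp1 (Pearson r = 0.99), Hcfc1 (0.98) and Nploc4 (0.98). Lin28a was followed by Sox11, Tnpo3 and Rfc1 (0.96 each) and Utf1 by Ube3a, Prmt2 and Cul4b (0.96 each). Those 9 genes themselves had r from −0.93 to −0.85 with the structural RNA share. For the other members the leading genes were Psmd13 for Pou5f1 (0.93), Tmem82 for Sox2 (0.89), Gpr125 for Nanog (0.93) and Adk for Tcf15 (0.96), with r of 0.10, 0.48, 0.58 and −0.48 with that share.

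Among 22 protein partners of OCT4 and NANOG and subunits of their chromatin complexes, limma called 0 in each of the 5 comparisons. At an unadjusted p under 0.05 there were 1 with the knockdown in serum and 4 between media in knockdown cells, and 0 in the other 3 comparisons, and voom called 0. Of all 14487 genes, 738 and 2683 had such a p in those 2 comparisons. It was 1067 for the knockdown in 2i, 404 for the difference and 2510 between media in control cells. Nr0b1 (DAX1), a nuclear receptor-like partner of OCT4, had the largest value with the knockdown in serum. Controls held 2556, 1696 and 754.9 normalised reads and knockdowns 1148, 359.6 and 543.6, at −1.23 on the log2 scale (SE 0.42, limma adjusted p = 0.524) with overlapping groups. Between media in knockdown cells Arid1a had the largest value, −1.46 (SE 0.68, limma adjusted p = 0.26), with overlapping groups. Wdr5, a subunit of H3K4 methyltransferase complexes, was at 0.95 in that comparison (SE 0.31, limma adjusted p = 0.106). Its groups did not overlap, nor did those of 19.1% of all genes.

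Among 17 target genes of OCT4 and SOX2, limma called 0 with the knockdown in either medium, with 3 at an unadjusted p under 0.05 in serum and 0 in 2i, and voom called 0. The largest value in serum was that of Tet2, a 5-methylcytosine dioxygenase, at −1.16 (SE 0.34, limma adjusted p = 0.255), with 5797, 3512 and 3788 normalised reads in the controls, 2434, 2239 and 1212 in the knockdown, and no overlap. Fgf4, which has a textbook OCT-SOX enhancer, was at −0.96 in serum (SE 0.35, limma adjusted p = 0.624). Between media in control cells 1 rose and 1 fell (1 called by voom), and in knockdown cells 1 fell (0 by voom), where 3.62% and 3.75% of all genes passed. Lefty2, a Nodal antagonist, rose in 2i (2.32, SE 0.60, limma adjusted p = 0.0460), and Dppa4 fell (−1.48, SE 0.29, limma adjusted p = 0.0114). Dppa4 also fell in knockdown cells (−1.19, SE 0.29, limma adjusted p = 0.0358), a call lost in 9 of 21 alternatives, 6 of them the loss of a single library. Lefty2 lost its call without any 1 of the 6 libraries compared, and Dppa4 in control cells without replicate 2 of either group or replicate 3 of 2i.

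In the LIN28 and let-7 axis, 17 genes were tested beside Lin28a itself, and with the knockdown limma called 1 in serum and 0 in 2i (1 at an unadjusted p under 0.05 in each, 0 by voom). Of all tested genes, 0.649% passed in serum and 1.27% in 2i. Igf2bp3, an oncofetal RNA-binding protein of the let-7 target set, had 421.2, 409.5 and 602 normalised reads in serum controls and 1551, 1209 and 973.1 in serum knockdowns. All knockdown libraries were above all controls, and their rise of 1.30 passed (SE 0.27, limma adjusted p = 0.0413). That call was lost in 13 of 22 alternatives, 9 of them the loss of a single library. In the 2i control it had 1910, 2623 and 2280 normalised reads, 2.16 above the serum control on the log2 scale (SE 0.27, limma adjusted p = 0.00109), which held in all 21 alternatives. In the 2i knockdown it had 2154, 1684 and 1618, a knockdown change of −0.31 (SE 0.27, limma adjusted p = 0.888), and the difference between the media, −1.62 (SE 0.39, limma adjusted p = 1.00), did not pass.

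Lin28b, the paralog of Lin28a, had lower values in all 2i libraries than in all serum libraries of the same shRNA. It had 736, 566.8 and 494 normalised reads in serum controls against 284.5, 70.34 and 1.174 in 2i controls (−2.67, SE 0.76, limma adjusted p = 0.0651). In knockdown cells it had 797.9, 990.4 and 419 in serum against 238.3, 51.78 and 5.531 in 2i, a change that passed (−2.93, SE 0.76, limma adjusted p = 0.0444). Its level followed the structural RNA share, by −0.59 per 10 points (SE 0.09, limma adjusted p = 0.000147), and the call was lost in 14 of 21 alternatives, among them the one with that share as a covariate. Hmga2, a let-7 target that encodes a chromatin protein, was at 1.92 in knockdown cells between media (SE 0.55, limma adjusted p = 0.0675).

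Relatives of the members by family were counted next. Of 21 POU, SOX, SALL and LIN28 relatives, 20 were in the table and 16 were tested. With the knockdown limma and voom called 0 in either medium, with 3 at an unadjusted p under 0.05 in serum and 2 in 2i. Between media limma called 3 of 16 in control cells and 5 of 16 in knockdown cells, where 3.62% and 3.75% of all genes passed, and voom called 3 and 1. In control cells Sox21 (2.31, SE 0.38, limma adjusted p = 0.00413) and Pou2f3 (2.04, SE 0.45, limma adjusted p = 0.0223) rose in 2i and Sox4 fell (−1.68, SE 0.43, limma adjusted p = 0.0448). The Sox21 call held in all 21 alternatives, that of Pou2f3 was lost in 5 of 20 and that of Sox4 in 10 of 21. In knockdown cells 1 rose, Sox21 (1.63), and 4 fell. The 4 were Lin28b, Pou3f1 (OCT6, a marker of the post-implantation epiblast and of neural progenitors), Sox4 (−2.53, SE 0.43, limma adjusted p = 0.00503) and Sall2 (−2.05, SE 0.44, limma adjusted p = 0.0179). Pou3f1 had 216, 317.5 and 22.05 normalised reads in serum knockdowns and 3.843, 0 and 0 in 2i knockdowns (−2.80, SE 0.52, limma adjusted p = 0.00785). Without the 3 libraries rich in structural RNA all 5 of these calls in knockdown cells were lost.

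TCF15 acts as a dimer with E-proteins such as TCF3, TCF4 and TCF12, and ID proteins, which lack a basic region, take up E-proteins and so hold back such dimers. Of 16 genes of this system, its ID inhibitors and its BMP and FGF inputs, 14 were tested. With the knockdown limma and voom called 0 in either medium, with 1 at an unadjusted p under 0.05 in each. Between media 3 of 14 passed in control cells and 3 of 14 in knockdown cells, all of them ID genes, where 3.62% and 3.75% of all genes passed. Voom called 3 and 1. Id1 had 174.8, 245.2 and 83.4 normalised reads in serum controls and 2.167, 0.6896 and 16.43 in 2i controls, at −2.53 (SE 0.49, limma adjusted p = 0.00922). In knockdown cells it had 216.8, 371.4 and 56.57 in serum and 2.306, 0 and 0 in 2i (−3.15, SE 0.49, limma adjusted p = 0.00329).

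Id2 had 130.3, 366 and 132.6 normalised reads in serum controls and 12.28, 40.69 and 29.34 in 2i controls, at −1.90 (SE 0.37, limma adjusted p = 0.0102). It fell in knockdown cells too (−1.47, SE 0.37, limma adjusted p = 0.0396), a call lost in 11 of 21 alternatives, 6 of them the loss of a single library and others voom and the structural RNA covariate. Id4 went the other way. It had 31.48, 31.98 and 34.22 normalised reads in serum controls and 307.6, 440 and 595.1 in 2i controls, a mean 13.7-fold higher (2.78, SE 0.36, limma adjusted p = 0.00115), and it rose in knockdown cells as well (2.38, SE 0.36, limma adjusted p = 0.00328). Id3 was at −1.08 in control cells (SE 0.65, limma adjusted p = 0.436) and −1.42 in knockdown cells (SE 0.65, limma adjusted p = 0.253), and did not pass.

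The E-protein genes did not pass in either comparison of media. Their changes in control cells were 0.48 for Tcf3 (SE 0.26, limma adjusted p = 0.364), 0.41 for Tcf4 (SE 0.28, limma adjusted p = 0.507) and 0.41 for Tcf12 (SE 0.33, limma adjusted p = 0.599). Id1 in control cells lost its call without replicate 2 of the serum or of the 2i control, and Id2 without serum control replicate 2, whereas Id4 kept its call in control cells in all 21 alternatives. In knockdown cells Id1, Id2 and Id4 each lost the call without the 3 libraries rich in structural RNA, which leaves 1 library of the 2i knockdown.

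**Figure D4:**
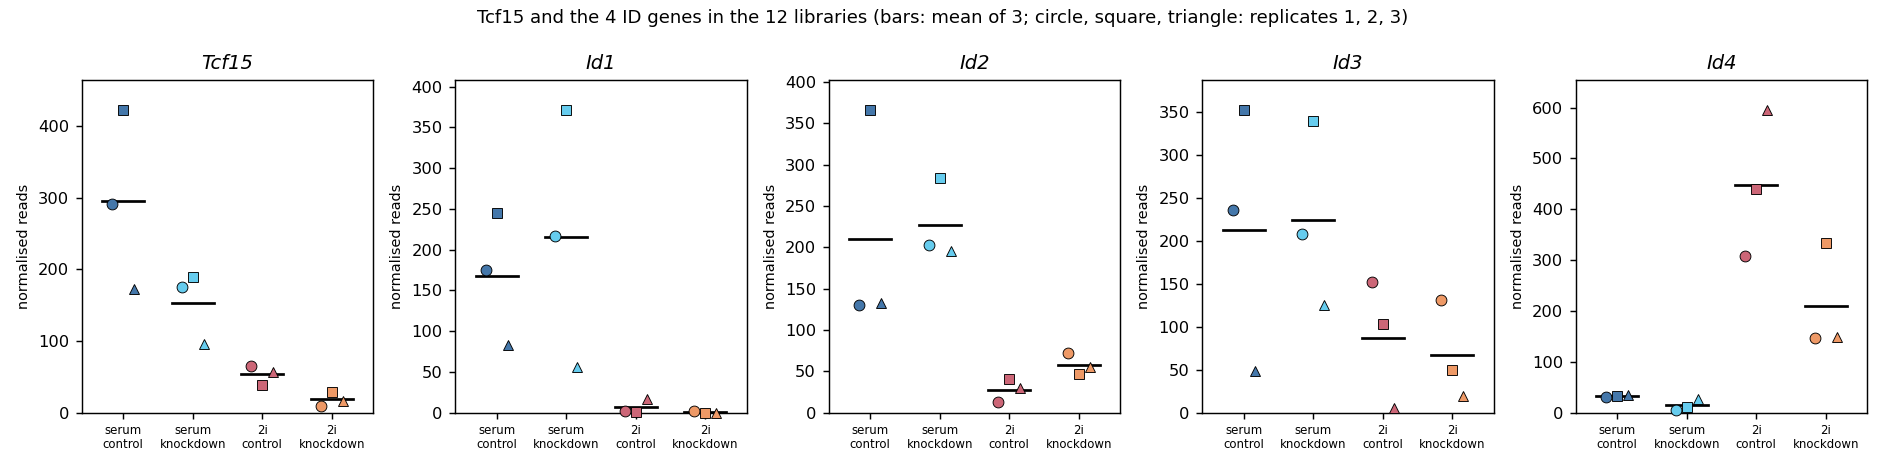
Normalised reads of Tcf15 and the 4 ID genes in the 12 libraries by group, on linear axes from 0 that differ between panels; bars are means of 3 libraries and symbols are replicate numbers. Tcf15, Id1 and Id2 are low in all 6 libraries of 2i, Id3 overlaps between the media, and Id4 is above 145 in every 2i library and below 35 in every serum library.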

How the data were processed

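RNA-seq values of E14 cells in 4 groups of 3 libraries were analysed. The authors deposited variance-stabilised log2 values, 1 table of 26061 genes and 1 of repeat families. Per the submitters' processing notes, the authors used the build mm9, DESeq2, TopHat2 (2.0.9) and Trim Galore (0.3.3). For the counting tool, annotation, strand setting and handling of reads with several matches, the sources used here give nothing. Inverting the transformation gave whole reads for 100% of values within 0.01 of a read. Normalised reads are these reads over the library's size factor, and exon lengths came from GENCODE on GRCm38. A log2 change on the deposited scale understates changes of genes with few reads, so folds are ratios of mean normalised reads.

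Genes with a mean at least 0.5 above the lowest value (14487) were fitted as deposited in R 4.3.3 with limma (3.58.1). The model had a mean for each group, all 12 libraries (8 residual degrees of freedom), empirical Bayes variances with a trend and two-sided Benjamini-Hochberg adjusted p under 0.05 over all tested genes. On simulated data for the knockdown in serum, 49% of 2-fold and 100% of 4-fold changes were recovered. Those counts were drawn with the same dispersion for every gene, and changes were planted only in genes above a minimum mean count. The shares therefore need not hold for genes that vary more between libraries or have fewer reads. Ratios within libraries used two-sided exact permutation tests. The 7 genes and the lists were chosen with earlier results of these data known. Named beside the 7 were Setdb1, per list up to 4 passing genes per comparison by size of change (with fewer than 2 passing, also among the 2 largest changes), and the 3 genes most correlated with each member; markers, E-protein genes and Id3 were named after their values were seen. Alternatives were the low-value filter, median centring, quantile normalisation, replicate blocks, only the groups compared, voom on recovered reads, structural RNA share as a covariate, each library left out and, added after seeing the data, 3 libraries left out together. Replicate numbers were checked for pairing through the correlation of deviations from group means. It was 0.58, 0.23 and 0.51 between same-numbered serum control and knockdown libraries, and −0.49 to 0.01 between those of different number. In 2i it was 0.46, 0.06 and 0.52, and −0.6 to 0.29 for different numbers. Deviations of 3 libraries from their mean sum to 0, so values for different numbers are not independent of those for the same number. The numbers were taken as pairs for the knockdown in serum and not in the other comparisons. Replicate 3 had the highest structural RNA share in each group, and the part of that share in these correlations was not tested. Promoter and microRNA sequences are from RefSeq (GRCm38.p6); 3′ untranslated sites are from GENCODE on GRCm38. Gene coordinates on mm9 are not given.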

Additional observations from a re-analysis of the deposited data

How the results depend on the processing

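Depth limits Utf1 and Tcf15 most, with 0 to 301 and 6 to 476 reads per library, and 3 libraries a group limit every test. On simulated data for the knockdown in serum, with the same dispersion for every gene, 49% of 2-fold changes were recovered. The members' SD relative to the group mean ran from 6.22% (Sox2, serum controls) to 96.5% (Utf1, 2i knockdowns). The share recovered at their own spread was not tested. Of 420 member changes recomputed with 1 library left out, 389 kept direction and side of the threshold, 9 lost the call, 3 gained it and 19 changed sign. Of 329 recomputed under the other alternatives the numbers were 303, 5, 4 and 17, and none of the changes that changed sign had passed. Causes were not tested. All gene counts passing moved as follows. With a replicate block they were 171 (knockdown in serum), 321 (knockdown in 2i), 1351 (media, control cells) and 1583 (media, knockdown cells), and with a block within medium 211, 425 and, for the difference of the knockdown changes, 2. The block changed no member call for the knockdown in either medium. Between media, where the numbers were not taken as pairs, 3 members passed with it in control cells, Lin28a and Utf1 added, and 4 in knockdown cells, Nanog and Utf1 added. Same-number correlations between media were 0.23, −0.18 and 0.22 in control cells and 0.50, 0.01 and 0.44 in knockdown cells. Between control and knockdown in 2i those correlations were 0.46, 0.06 and 0.52. With structural RNA share as a covariate the counts were 203, 364 and, between media in control cells, 1184. With only the groups compared they were 88 (knockdown in 2i) and 195 (media, knockdown cells), and with voom 114 and 240. In each of these fits, and with no low-value filter, either Lin28a or Tcf15 lost its call between media in knockdown cells. Members passing between media in knockdown cells were 1 with no low-value filter, 1 with only the groups compared, 1 with voom and 0 without the 3 libraries rich in structural RNA. Without those 3 libraries the gene counts were 65 (knockdown in 2i), 1 (difference), 316 and 73 (media in control and knockdown cells).

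Leaving out 1 library gave 37 to 116 genes for the knockdown in serum (37 without serum control replicate 1, 43 without serum knockdown replicate 2), 99 to 247 in 2i (99 without 2i control replicate 1, 100 without 2i knockdown replicate 3) and 0 to 1 for the difference. Between media it gave 171 to 779 in control cells (171 without 2i control replicate 3, 182 without serum control replicate 2), with 0 to 1 members, and 144 to 1515 in knockdown cells (144 without serum knockdown replicate 2, 1515 without 2i knockdown replicate 1), with 0 to 4 members. Without 2i knockdown replicate 1, Sall4 (−1.45, limma adjusted p = 0.0370) and Utf1 (−2.22, limma adjusted p = 0.0155) passed there beside Lin28a and Tcf15.

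Changes of sign were these. With structural RNA share as a covariate: Lin28a 0.00 (knockdown in serum), Utf1 0.01 (knockdown in 2i), Sall4 0.06 and Tcf15 0.01 (difference), Sall4 0.02 (media, control cells), Pou5f1 −0.14 and Sall4 0.08 (media, knockdown cells). Pou5f1 between media in knockdown cells was −0.03 with median centring and −0.08 with quantile normalisation. Without the 3 libraries: for the knockdown in 2i Pou5f1 −0.02, Sall4 0.51, Lin28a 0.07 and Utf1 0.69, for the difference Sall4 0.55 and Utf1 0.19, between media in knockdown cells Pou5f1 −0.31 and Sall4 0.46. With 1 library left out, these ranges reached or crossed 0: with the knockdown in serum −0.36 to 0.38 for Sall4 and −0.20 to 0.03 for Sox2, with the knockdown in 2i −0.57 to 0.58 for Utf1, −0.29 to 0.05 for Nanog and −0.46 to 0.00 for Sox2. For the difference they were −0.32 to 0.24 for Tcf15, −0.33 to 0.13 for Sox2 and −1.07 to 0.08 for Utf1, and between media in knockdown cells −0.09 to 0.17 for Pou5f1 and −0.02 to 0.44 for Sox2. The ratio of Sox2 to Pou5f1 with the knockdown in serum ranged from −0.09 to 0.23, with 0.08 in all libraries.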
